A study of Mus musculus with 16 samples.

Results

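Targeting Sep15 in CT26 cells was examined here as 1 comparison, the 4 shSep15 arrays against the 4 empty vector control arrays, which make up 8 of the 16 arrays in the study. All 45037 probe sets of the mouse array other than the manufacturer's controls were tested, and 18193 genes had a probe set of their own symbol. The account covers 17945 of these genes, since 248 interferon-stimulated, Afp and Wnt pathway genes were set aside. CT26 is a colon carcinoma line of BALB/c mice. The shSep15 line carried a pU6-m3 vector with a hairpin against the mRNA of Sep15, the control line carried the same vector without a hairpin, and both were stably transfected. Cells with the TR1 hairpin, alone (shTR1) or together with the Sep15 hairpin (shTR1/shSep15), gave 4 arrays each. They entered the fit for its estimate of the spread and are given beside some results. The study describes several independent clones, but nothing in the sources used here states which of them the arrays came from. The hairpin and the history of the clone or clones that carry it therefore cannot be told apart. The 4 arrays of a line came from different mRNA samples, but whether these were separate cultures is not stated. The p-values therefore measure the spread between these samples, which may be technical.

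Sep15, the product of the gene Selenof, is a selenoprotein of the endoplasmic reticulum with a thioredoxin-like fold. It binds UGGT, the enzyme that puts a glucose back on the glycans of misfolded glycoproteins so that they enter another round of folding with calnexin and calreticulin. It has been studied in colon cancer cells for its part in their growth.

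The hairpin was aimed at a 19-nucleotide stretch of the Selenof mRNA, shown because it defines the shSep15 line (sense strand, in DNA letters). The labels give the same stretch for every shSep15 and shTR1/shSep15 array. A further hairpin sequence that the methods mention is not named there, and the place of the stretch in the mRNA was not located here.
Selenof hairpin target: acagaagagttccatttaa
Selenof had log2 signals of 8.02, 8.06, 8.29 and 8.15 in the 4 shSep15 arrays, against 11.56, 10.78, 11.57 and 11.42 in the control arrays. The groups lay far apart. The signal was 9.2-fold lower in shSep15 cells, a log2 difference of −3.20 (SE 0.19, adjusted p = 1.11e-06 from limma). The target gene was thus low in every array that carries the label shSep15. In shTR1/shSep15 cells, which carry the same hairpin, Selenof averaged 7.66 ± 0.22 (SD, n = 4). A dimmer second probe set of Selenof lay near the floor of the arrays, with means of 3.58 in shSep15 and 3.59 in control arrays, and did not pass (adjusted p = 0.996). Txnrd1, the gene of TR1, had 9.86, 10.62, 9.54 and 9.66 in shSep15 arrays and 10.39, 9.45, 9.90 and 10.10 in control arrays, with a difference of −0.04 (SE 0.49, adjusted p = 0.984). In the arrays labelled shTR1, Txnrd1 read 7.84, 10.57, 7.89 and 9.71, so replicates 2 and 4 went against that label.

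Some arrays stood apart. Among 13598 bright probe sets, control replicate 2 was more than 1 log2 unit above the 3 other controls at 988 and more than 1 below them at 1321, where no other control array had more than 81 above and 138 below. A list of 23 immediate-early genes, which growth factors and stress switch on within minutes, averaged 10.85 in that array, against 7.60 to 7.83 in the 3 other controls, and 7.90 to 8.32 in the shSep15 arrays. Among shSep15 arrays, replicates 3 and 4 were unusually alike: their differences had an SD of 0.20 and exceeded 1 at 26 probe sets, while the other shSep15 pairs had SDs of 0.43 to 0.53 and 406 to 1089 such probe sets. These 2 shSep15 arrays were kept separate, and counts with the 2 averaged are given below. In the shTR1/shSep15 line, whose arrays also entered the fit, replicates 1 and 3 were at least as alike. Their differences had an SD of 0.16 and exceeded 1 at 21 probe sets, and no count was made with them averaged. Most defining markers of intestinal epithelium were dim in both groups, and Cdx1 averaged 4.36 in shSep15 and 4.56 in control arrays. Krt20, at 5.02 in shSep15 and 8.31 in control arrays, was the 1 of them that passed. At most 1 of the 13 such markers was above 6 in any shSep15 array and at most 2 in any control array. Their summed log2 signal ran from 56.3 to 59.2 in shSep15 arrays and from 58.8 to 64.4 in control arrays. The common leukocyte marker Ptprc averaged 2.73 in shSep15 and 2.79 in control arrays, and none of 8 endothelial markers was above 6 in any array of either line.

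In shSep15 cells, 619 probe sets were higher (1.37% of those tested) and 266 were lower (0.591%) at an adjusted p under 0.05. Counted as genes, 338 were higher (1.86%) and 157 lower (0.863%), of which the 17945 genes described here held 322 and 154. At least a 2-fold difference was found for 179 of the 322 and 95 of the 154, and the median log2 difference was 1.05 among the higher and −1.13 among the lower ones. In bulk samples, fewer cells that carry an mRNA and less of it per cell cannot be told apart. All 4 shSep15 arrays lay above all 4 controls at 875 genes (4.81%) and below them at 503 (2.76%). With control replicate 2 left out 730 probe sets were higher and 446 lower, and with shSep15 replicates 3 and 4 averaged the counts were 288 and 152.

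The 15 largest rises among genes whose arrays did not overlap were 4.39- to 9.92-fold. Of these, 9 lie on chromosome 3, which also carries Selenof, and 3 on the X chromosome. The largest was that of Fpgt, which makes GDP-fucose in the fucose salvage pathway. It had 10.08, 10.03, 9.92 and 10.11 in shSep15 arrays, against 6.99, 7.78, 6.06 and 6.07 in control arrays. Its shSep15 arrays were tightly grouped and all of them were above the highest control (log2 difference 3.31, SE 0.47, adjusted p = 0.00207, limma). Cryz, an NADPH-dependent quinone reductase, had 11.06, 10.95, 10.98 and 10.90 in shSep15 arrays, against 8.71, 7.93, 8.39 and 8.10 in control arrays, a 6.47-fold rise that both of its probe sets showed (adjusted p = 0.000601). Tyw3, an enzyme of the wybutosine modification of phenylalanine tRNA, had 7.14, 7.23, 7.43 and 7.50 in shSep15 arrays and 5.44, 4.16, 4.14 and 5.38 in control arrays (log2 difference 2.55, adjusted p = 0.00207). Sgms2, a sphingomyelin synthase of the plasma membrane, averaged 11.10 ± 0.17 in shSep15 and 8.94 ± 0.67 in control arrays (SD, n = 4 each), a rise of 2.16 (adjusted p = 0.00826). Ctso, a lysosomal cysteine protease, rose by 2.62 (adjusted p = 0.00853). Acadm, which carries out the first step of medium-chain fatty acid oxidation, had 10.24, 9.83, 10.72 and 10.86 in shSep15 arrays, against 9.04, 7.03, 8.16 and 8.64 in control arrays. These groups also did not overlap, and its rise of 2.20 passed (adjusted p = 0.028), but the call was lost without shSep15 replicate 1, 3 or 4 or control replicate 3 or 4 (adjusted p = 0.0593, 0.0976, 0.103, 0.0581 and 0.0507), and with the 8 arrays of the comparison alone (0.0696).

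The other large rises were in genes of varied function. Tmem47, a transmembrane protein of cell junctions, had 5.56, 4.41, 6.01 and 6.03 in shSep15 arrays, while every control array was between 2.39 and 2.48. The control signals are near the lowest of the arrays, so the 8.42-fold difference (log2 difference 3.07, SE 0.26, adjusted p = 2.9e-05, limma) separates a signal in shSep15 cells from near background. Bank1, a scaffold of B cell receptor signalling, had 4.02, 6.54, 6.95 and 6.78 in shSep15 arrays and 2.93, 2.83, 3.33 and 2.94 in control arrays (log2 difference 3.07, adjusted p = 0.00595, and 0.0706 with the 8 arrays alone). Replicate 1 was well below the 3 other shSep15 arrays yet above every control. Supt20, a subunit of the SAGA histone acetyltransferase complex, rose by 2.14, with signals of 9.36 to 10 in shSep15 arrays against 7.19 to 7.83 in control arrays (adjusted p = 9.98e-05), and 6 of its 7 probe sets passed. Myoz2, a calcineurin-binding protein of the muscle Z-disc, averaged 7.72 ± 0.43 in shSep15 and 5.13 ± 0.46 in control arrays (SD, n = 4 each; adjusted p = 0.00038). Ccnb1ip1, a ubiquitin ligase that binds cyclin B1 and takes part in meiotic crossing over, had 6.64, 6.98, 7.59 and 7.89 in shSep15 arrays and 5.20, 4.02, 4.46 and 4.36 in control arrays. It rose by 2.76 (adjusted p = 0.0162), a call lost without shSep15 replicate 3 or 4 or control replicate 4 (adjusted p = 0.0611, 0.0653 and 0.0505) or with shSep15 replicates 3 and 4 averaged (0.0626). Of 29 measured cell cycle inhibitors, cyclins and targets of p53 it was the 1 that passed, and the list median was −0.10. The remaining rises were Morc4 (2.69) and Tcp11x2 (2.13) on the X chromosome, Gm7967 (2.56) on chromosome 1 and B230307C23Rik (2.16) on chromosome 16.

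Several of the risen genes are neighbours of each other or of Selenof on chromosome 3. Selenof and Hs2st1, a heparan sulfate 2-O-sulfotransferase, start 210 bases apart on opposite strands, and so do Cryz and Tyw3, 98 bases apart. The bases between the starts are shown because 1 short region lies upstream of both genes of a pair. Both genes rose in the case of Cryz and Tyw3. In the other pair Hs2st1 rose, while Selenof is itself the target of the hairpin. The part of these regions in the changes was not tested. The bases are RefSeq sequence of build GRCm38.p6, written on the plus strand, with CG dinucleotides in capitals.
Selenof and Hs2st1 starts, chr3:144570217-144570426: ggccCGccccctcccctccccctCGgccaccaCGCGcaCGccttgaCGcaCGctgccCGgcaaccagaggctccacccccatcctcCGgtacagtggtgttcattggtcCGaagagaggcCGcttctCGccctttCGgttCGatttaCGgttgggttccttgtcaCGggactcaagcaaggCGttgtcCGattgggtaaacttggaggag
Cryz and Tyw3 starts, chr3:154597099-154597196: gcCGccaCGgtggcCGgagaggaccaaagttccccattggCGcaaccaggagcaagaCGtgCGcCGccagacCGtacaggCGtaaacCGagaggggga
The motif searched was CG, which reads the same on both strands. The first region holds 18 of them at 63.8% G and C, and the second 10 at 66.3%. In promoter windows of 250 bases before and 50 after a start, Selenof had 29 and Hs2st1 32, which 12.9% and 9.52% of all 32851 windows reach, and Cryz had 25 and Tyw3 16 (18.4% and 33.0% of windows). At least 1 CG is in 94.6% of windows, and the median is 7, or 22 in the first windows of genes with a mean signal of at least 6. Neighbouring windows overlap, by 290 bases for Selenof and Hs2st1 and 198 for Cryz and Tyw3, so they are not separate observations.

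Hs2st1 had 10.03, 9.69, 10.10 and 10.18 in shSep15 arrays, against 8.84, 8.05, 8.31 and 8.46 in control arrays. All 4 shSep15 arrays were above every control (log2 difference 1.59, SE 0.24, adjusted p = 0.00311, limma), and in shTR1/shSep15 cells, which carry the same hairpin, Hs2st1 averaged 8.57 ± 0.23 (SD, n = 4). On the other side, Sh3glb1, endophilin B1 of membrane curvature, rose by 1.13 (adjusted p = 0.026), and Clca3a1, 1 of a family of similar genes whose signals may mix, by 1.66 (adjusted p = 0.0169). Not every probe set of these genes passed: 2 of 4 did for Hs2st1, 1 of 3 for Sh3glb1 and 1 of 2 for Clca3a1, all with the same direction. The next genes on that side, Clca3a2 and Clca3b, were near the floor of the arrays in both lines and did not pass. Farther on the side of Hs2st1, Gtf2b, the general transcription factor TFIIB, rose by 1.67 (adjusted p = 0.00851). Lmo4 and Pkn2, which lie between them, had differences of 1.05 and 1.55 that did not pass (adjusted p = 0.117 and 0.0818), although their arrays did not overlap. A dimmer probe set of Pkn2 passed as higher. Near Cryz, the dim genes Erich3 and Tnni3k, which lie between Cryz and Fpgt, had differences of −0.04 and −0.16.

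**Figure D1:**
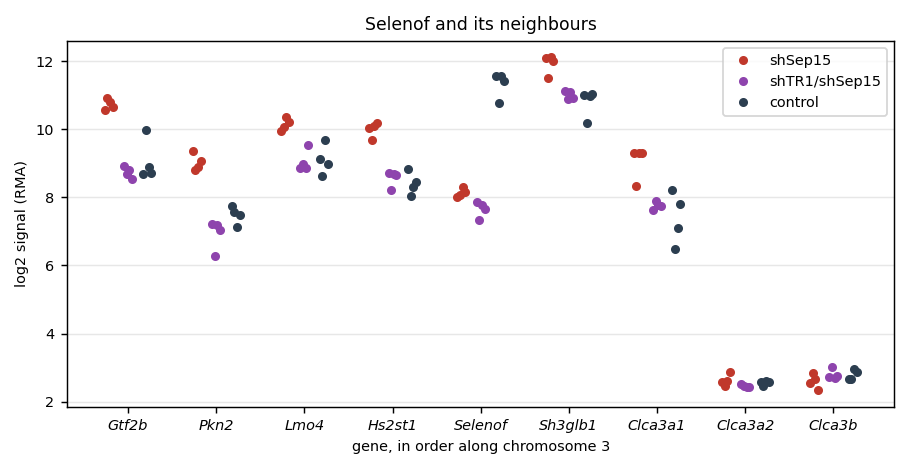
Log2 signal of Selenof and of the 4 nearest measured genes on each side, in their order along chromosome 3, in each shSep15, shTR1/shSep15 and control array. Selenof is lower in shSep15 than in control arrays by 3.20, while Gtf2b, Hs2st1, Sh3glb1 and Clca3a1 are higher by 1.13 to 1.67 and Clca3a2 and Clca3b lie near the floor in every array.

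**Figure D2:**
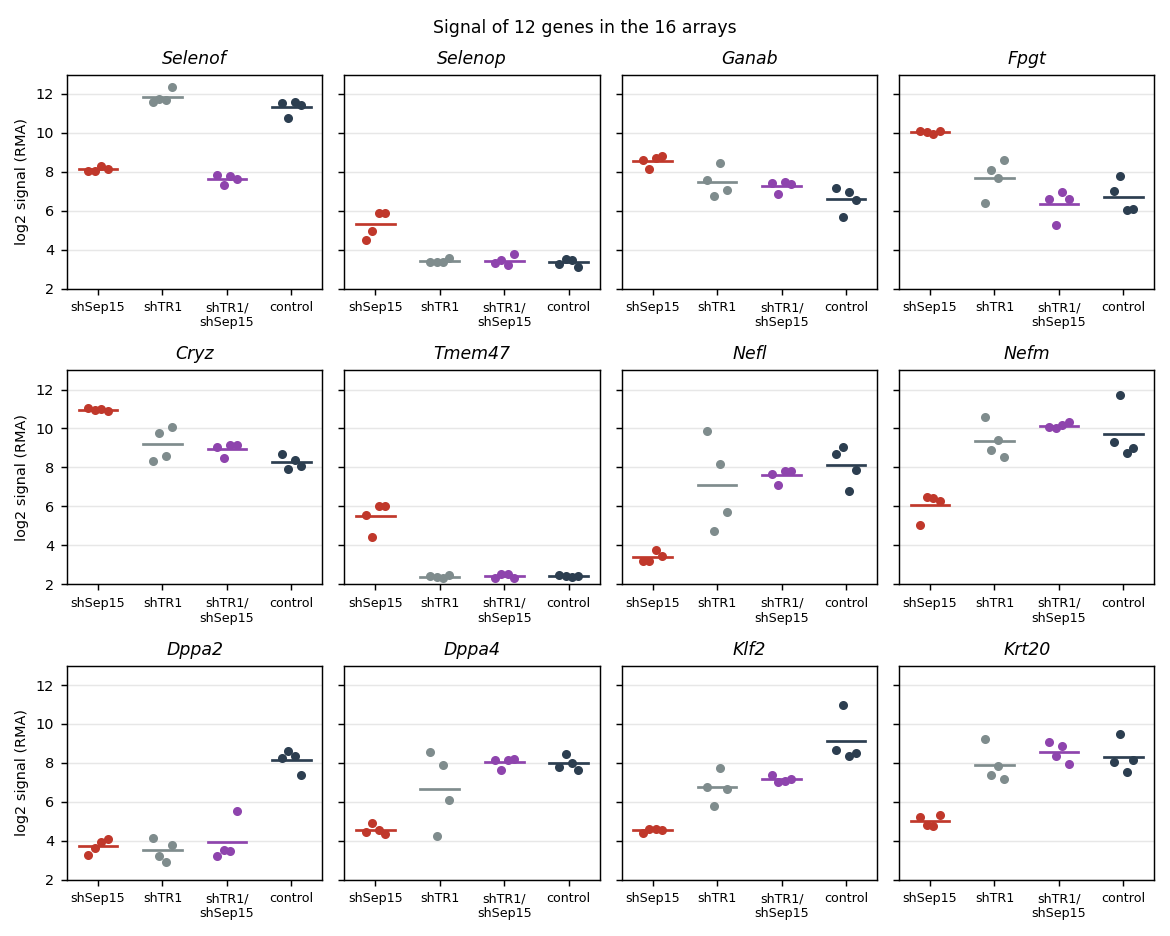
Log2 signal of 12 genes in each array of the shSep15, shTR1, shTR1/shSep15 and control lines, 1 point an array, with a bar at the mean of the 4 arrays of a line. The shSep15 arrays do not overlap the control arrays for any gene shown, and control replicate 2 is the highest control point for Klf2, Nefm, Nefl, Krt20, Dppa2, Dppa4, Fpgt and Selenop.

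The 15 largest falls were 6.42- to 31.7-fold and lay on many chromosomes, with only Selenof itself on chromosome 3. For 2210016F16Rik, Nefl, Dppa2 and Krt18 the shSep15 means (4.01, 3.40, 3.74 and 3.26) were below the median signal of every shSep15 array, so the sizes and the order of such falls are limited by the floor of the arrays. The largest was 2210016F16Rik on chromosome 13 (log2 difference −4.99, adjusted p = 2.14e-06, limma). It had 4.13, 4.26, 3.81 and 3.83 in shSep15 arrays, against 9.44, 8.38, 8.72 and 9.43 in control arrays. Of its 3 probe sets, 2 passed as lower, and the size of the fall depended on the probe set. The next brightest averaged 6.96 in shSep15 and 7.15 in control arrays, and its difference of −0.19 did not pass (adjusted p = 0.592). The dimmest fell by 1.53 (adjusted p = 0.00756). Of 13 measured intermediate filament genes other than keratins, Nefl and Nefm fell and none rose, with a median difference of −0.18. Over all genes the median was −0.02, and 0.863% were lower and 1.86% higher. Nefl, the light neurofilament chain, had 3.20, 3.19, 3.77 and 3.46 in shSep15 arrays, against 8.69, 9.06, 6.77 and 7.88 in control arrays (adjusted p = 0.0087). Nefm, the medium chain and the next gene on chromosome 14, had 5.02, 6.50, 6.45 and 6.29 in shSep15 arrays, against 9.32, 11.74, 8.74 and 9.0 in control arrays (log2 difference −3.63, adjusted p = 0.0046, and 0.0567 with the 8 arrays alone). The highest control value of Nefm was that of control replicate 2, and without it the difference was −2.96 (adjusted p = 0.0022). Krt20, a keratin of mature intestinal epithelium, had 5.22, 4.79, 4.76 and 5.32 in shSep15 arrays and 8.04, 9.49, 7.55 and 8.13 in control arrays (log2 difference −3.28, adjusted p = 0.00155). Krt18, a keratin of simple epithelia, had 3.36, 3.50, 3.30 and 2.89 in shSep15 arrays and 6.17, 6.16, 5.67 and 5.78 in control arrays. These groups did not overlap. The arrays labelled shTR1, which had an SD of 1.89 for this gene, are part of the fit, and the adjusted p of 0.039 went to between 0.0604 and 0.129 when any 1 of the 8 arrays was left out and to 0.119 with shSep15 replicates 3 and 4 averaged.

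Arhgef5 and Rhob were among the largest falls in shSep15 cells. Arhgef5, a guanine nucleotide exchange factor, had 4.64, 4.92, 4.53 and 4.53 in shSep15 arrays, against 9.60, 8.72, 9.39 and 9.18 in control arrays, and its difference of −4.57 had the smallest p of all probe sets tested in this comparison (SE 0.17, adjusted p = 3.56e-09, limma). It was also low in the arrays labelled shTR1 (4.52 ± 0.17) and at 9.55 ± 0.21 in shTR1/shSep15 cells (SD, n = 4 each), so it was high in the line that carries both hairpins. Rhob, an early response gene, had 5.79, 7.46, 6.28 and 6.21 in shSep15 arrays and 8.69, 11.83, 9.36 and 8.59 in control arrays (log2 difference −3.18, adjusted p = 0.0109, and 0.107 with the 8 arrays alone). Control replicate 2 was its highest array, and without it the difference was −2.44 (adjusted p = 0.00427).

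Genes of pluripotent cells, growth factor signalling and the matrix were among the other large falls. Dppa2 and Dppa4, partners that bind chromatin in pluripotent cells and lie side by side on chromosome 16, both fell. Dppa2 had 3.29, 3.63, 3.94 and 4.10 in shSep15 arrays, against 8.27, 8.60, 8.34 and 7.37 in control arrays (log2 difference −4.41, adjusted p = 0.00015, limma), and it averaged 3.94 ± 1.08 in shTR1/shSep15 cells and 3.51 ± 0.57 in the arrays labelled shTR1 (SD, n = 4 each). Dppa4 had 4.44, 4.94, 4.55 and 4.35 in shSep15 arrays and 7.80, 8.45, 8.02 and 7.63 in control arrays (log2 difference −3.41, adjusted p = 0.0125), but stood at 8.04 ± 0.26 in shTR1/shSep15 cells (SD, n = 4). The other 23 measured pluripotency genes did not pass. Klf2, a Krüppel-like transcription factor, had between 4.41 and 4.62 in the shSep15 arrays and between 8.37 and 10.97 in the control arrays, its highest value being that of control replicate 2. Its difference was −4.58 with that array and −3.96 without it (adjusted p = 0.000193 and 1.31e-05). Of the 16 Krüppel-like factors measured it was the 1 that passed. The list median was −0.29, or −0.21 without control replicate 2, and 3 of the 16 differences were above 0. Klf7 fell by 1.46 without passing (adjusted p = 0.0665, limma), although its arrays did not overlap and all 4 of its probe sets had the same direction. Igfbp4, which binds insulin-like growth factors outside the cell, fell by 3.37 (adjusted p = 0.00205) at its brightest probe set and passed at 5 of 6, and the other 17 measured genes of that axis did not pass. Col3a1, a fibrillar collagen, had 4.33, 5.17, 4.31 and 4.39 in shSep15 arrays and 7.66, 6.84, 8.32 and 7.55 in control arrays (adjusted p = 0.0307), a call lost without shSep15 replicate 1, 3 or 4 or control replicate 1, 3 or 4 (adjusted p = 0.0824, 0.0985, 0.0967, 0.0541, 0.0762 and 0.0775) and with shSep15 replicates 3 and 4 averaged (0.0993). Col3a1 is also 1 of 10 fibroblast markers, of which 1 to 2 were above 6 in shSep15 arrays and 3 to 5 in control arrays, with summed log2 signals of 50.4 to 55.4 in shSep15 and 55.3 to 60.6 in control arrays. Of these 10 markers, 6 had differences above 0, the median was 0.05, and only Col3a1 passed. Their part in this result was not tested. Of 41 measured genes of collagens and matrix, 3 fell and none rose, beside 0.863% lower and 1.86% higher over all genes. The others were Loxl4, a lysyl oxidase that cross-links collagen, which fell by 1.05 (adjusted p = 0.0205, and 0.0502 and 0.0561 without shSep15 replicate 2 or 3, or 0.137 with the 8 arrays alone), and Mfap5, a microfibril glycoprotein, which fell by 1.52 (adjusted p = 0.0307, and 0.0508 to 0.0874 without any 1 array other than control replicate 2, or 0.0646 with shSep15 replicates 3 and 4 averaged).

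Tshz1, a zinc finger transcription factor of the teashirt family, had 6.70, 5.61, 6.99 and 6.98 in shSep15 arrays, against 9.87, 8.97, 8.89 and 9.50 in control arrays (log2 difference −2.74, adjusted p = 0.000486, limma). Lrrn4cl had 4.38, 4.60, 4.84 and 5.03 in shSep15 arrays, against 7.54, 8.44, 10.59 and 7.23 in control arrays (adjusted p = 0.00229, and 0.0508 with the 8 arrays alone). Both belong to a list of 10 genes drawn up here, of which 3 rose (Fpgt, Tmem47 and Bank1) and 3 fell. All of these that passed are among the genes that the study itself listed from the same arrays. That list is not independent evidence of its own direction. The last of the 3 was Ifitm1, a membrane protein that is also induced by interferon, which had 4.55, 4.90, 5.86 and 5.83 in shSep15 arrays and 8.51, 8.84, 9.10 and 7.92 in control arrays. Its adjusted p of 0.0353 went to between 0.0573 and 0.107 with any 1 of the 8 arrays left out and to 0.0769 with shSep15 replicates 3 and 4 averaged.

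The same genes were read in the other lines, which share the control arrays with this comparison. Between shTR1/shSep15 and control cells 0.0385% of genes passed, and between the arrays labelled shTR1 and control 0.275%. None of the 15 rises passed in either of them. Of the 15 falls, Selenof, Dppa2 and Tshz1 also passed as lower with both hairpins, and Arhgef5, Dppa2, Lrrn4cl and Tshz1 in the arrays labelled shTR1. Tested directly, shSep15 and shTR1/shSep15 cells differed at 3.5% of genes, among them 14 of the 15 rises and 11 of the 15 falls. The 30 genes were chosen for their values in the same shSep15 arrays, so these counts are a description. Acadm was the rise that did not pass (adjusted p = 0.0659, limma), and Selenof, Dppa2, Rhob and Tshz1 were the falls that did not. Fpgt averaged 10.03 ± 0.08 with the Sep15 hairpin alone and 6.35 ± 0.75 with both hairpins, and Nefl averaged 3.40 ± 0.28 with the Sep15 hairpin alone and 7.59 ± 0.36 with both (SD, n = 4 each). Selenof was low in both of these lines.

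**Figure D3:**
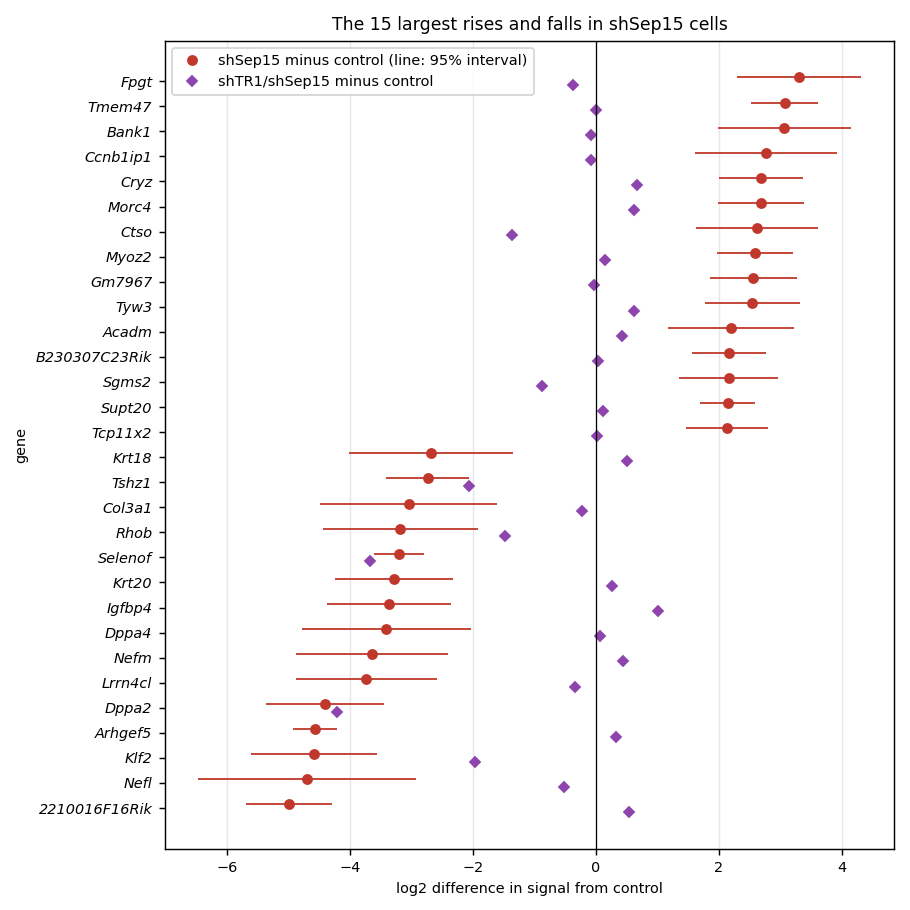
Log2 difference from control of the 15 genes with the largest rises and the 15 with the largest falls in shSep15 cells (circles, with the 95% interval of the fit), and of the same genes in shTR1/shSep15 cells (diamonds). Differences in shSep15 cells run from −4.99 to 3.31, while the diamonds lie within 1.01 of 0 except for Selenof, Dppa2, Tshz1, Klf2, Rhob and Ctso.

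Among the 23 measured selenoproteins, which carry selenocysteine and compete for the same supply of selenium, 2 rose and Selenof fell, with a list median of 0.15. Over all genes, 1.86% were higher and 0.863% lower. Selenop, the secreted protein that carries selenium between tissues, had 4.52, 4.99, 5.86 and 5.86 in shSep15 arrays, against 3.26, 3.54, 3.45 and 3.13 in control arrays. Its signal was low, and all 4 shSep15 arrays were above every control (log2 difference 1.96, SE 0.24, adjusted p = 0.000904, limma). Selenop averaged 3.42 ± 0.24 in shTR1/shSep15 cells (SD, n = 4). Selenot, a thioredoxin-like protein of the endoplasmic reticulum encoded on chromosome 3, had 11.89, 11.44, 11.51 and 11.59 in shSep15 arrays and 10.93, 9.75, 10.40 and 10.52 in control arrays (log2 difference 1.21, adjusted p = 0.0172, and 0.0569 and 0.053 without shSep15 replicate 1 or 4, or 0.0719 with the 8 arrays alone), and 1 of its 4 probe sets passed. Gpx1 and Gpx4, the glutathione peroxidases that are most abundant in many cells, were at differences of 0.41 and 0.02 and did not pass.

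The folding cycle in which Sep15 takes part was read next, with 19 genes of the calnexin cycle and its glucosyltransferases. Ganab, the catalytic subunit of glucosidase II, which trims the glucose that UGGT puts back, had 8.60, 8.13, 8.71 and 8.79 in shSep15 arrays, against 7.18, 5.66, 6.96 and 6.55 in control arrays. It was the 1 gene of the list that passed (log2 difference 1.97, SE 0.35, adjusted p = 0.00922, limma), at 1 of its 2 probe sets. Uggt1 itself was at 0.44 (SE 0.20) and Uggt2 at 0.14 (SE 0.10), Canx at −0.06 and Calr at 0.23, and none of these passed. The list median was 0.21 and 16 of 19 differences were above 0. Over the 8054 genes with a mean signal of at least 6, the median was 0.10 and 4896 differences were above 0. Edem2, which takes misfolded glycoproteins out of the cycle for degradation, had a difference of 0.77 (adjusted p = 0.14). Of 23 chaperones and genes of the unfolded protein response in the endoplasmic reticulum none passed, with a median of 0.12. Hspa5, the main chaperone of that compartment, was at 12.50 ± 0.50 in shSep15 and 12.64 ± 0.48 in control arrays, and Xbp1, its transcriptional regulator, at 10.12 ± 0.29 and 9.15 ± 0.48 (SD, n = 4 each; adjusted p = 0.138 for Xbp1).

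Other gene groups held few changed genes, to be read beside 1.86% higher and 0.863% lower over all genes. Of 33 epithelial genes, Spint2, an inhibitor of membrane serine proteases, rose by 0.92 at its brighter probe set and 2.91 at the other (adjusted p = 0.00749 and 1.6e-06, limma), and Krt18 and Krt20 fell. Of 29 G2/M genes, Cdc25c, the phosphatase that starts mitosis, encoded on chromosome 18, fell by 1.29 with 6.23, 6.52, 6.32 and 6.35 in shSep15 arrays against 7.84, 7.27, 7.12 and 8.35 in control arrays (adjusted p = 0.00591, and 0.0758 with the 8 arrays alone), and none of 28 S-phase genes passed. Without control replicate 2 the medians of these cell cycle lists went to −0.37 and −0.30, against −0.12 and 0.00 with it, and E2f1, a transcription factor of S-phase entry, then passed as lower (−0.75, adjusted p = 0.0261). Of 27 apoptosis genes, Casp6, an executioner caspase encoded on chromosome 3, rose by 1.38 (adjusted p = 0.00926, and 0.0656 with the 8 arrays alone), and Fadd, the adaptor of death receptors, fell by 0.57 (adjusted p = 0.0208, and 0.0832, 0.078 and 0.0697 without shSep15 replicate 3 or 4 or control replicate 4, 0.0675 with the 8 arrays alone, 0.0987 with an intensity trend and 0.0785 with shSep15 replicates 3 and 4 averaged). Of 16 genes of serine and glycine metabolism, Gldc, a subunit of the glycine cleavage system, fell by 1.72, with 4.88, 4.95, 4.77 and 4.66 in shSep15 arrays against 6.90, 6.74, 6.22 and 6.28 in control arrays (adjusted p = 2.9e-05). Cd14, a co-receptor for bacterial lipopolysaccharide that is also encoded on chromosome 18, fell by 1.29 (adjusted p = 0.0238, and 0.0615, 0.0514 and 0.0584 without shSep15 replicate 1 or control replicate 3 or 4, or 0.0607 with the 8 arrays alone). It is 1 of 15 measured leukocyte markers, of which 2 were above 6 in every array of both lines, with summed log2 signals of 67.5 to 72.6 in shSep15 and 67.3 to 74.8 in control arrays.

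No member passed at its brightest probe set in the lists of extracellular proteases and their inhibitors (31 genes, median −0.12) or targets of Nrf2 (20, −0.14). The same held for receptors that use the common gamma chain and the kinases and STAT factors they act through (12, −0.14). It also held for the EGF family (12, −0.19) and for glycolysis and the hypoxia response (22, 0.11). Serpinf1, a member of the protease list, fell by 1.68 at its brightest probe set without passing (adjusted p = 0.1, limma). At its other probe set it averaged 3.63 in shSep15 and 7.35 in control arrays and passed as lower (−3.72, adjusted p = 0.0307, limma). The common gamma chain itself, Il2rg, was not analysed here, since no probe set carried its symbol in the annotation used. Nor did any member pass among the immediate-early genes (23, median −0.42), cytokines and chemokines (26, −0.32) and cholesterol synthesis (18, −0.32). The medians of these lists moved more with control replicate 2 than those of the lists just named. Without that array the median of the immediate-early genes was 0.25, with the opposite sign, and Dusp1, a phosphatase of MAP kinases, passed as higher. For cholesterol synthesis the median without it was −0.55, and Dhcr7, Hsd17b7, Mvk and Stard4 passed as lower. Of these, Mvk lies in the lower stretch of chromosome 5 described below. Among the cytokines Csf2, Il15 and Lif then passed as higher and Ccl20 as lower. Ccl20 had 4.91, 5.15, 4.71 and 4.66 in shSep15 arrays, against 5.80, 5.24 and 5.81 in 3 control arrays and 10.46 in control replicate 2. Without that array the medians of glycolysis and hypoxia, the EGF family, proteases and Nrf2 targets were −0.03, −0.03, −0.03 and −0.22, and Egf passed as higher (0.59, adjusted p = 0.0483).

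Genes that changed were unevenly spread over the chromosomes. Chromosome 3 held 113 higher genes of 920 measured (12.3%), which is 33.4% of all higher genes on a chromosome with 5.08% of the genes. On chromosome 18 none of 463 genes was higher and 26 were lower (5.62%), and on the X chromosome 23 of 615 were lower (3.74%). On the other autosomes between 0.298% and 4.26% of genes were higher and between 0% and 1.23% lower. Chromosomes 13, 17 and 4 had the next highest shares of higher genes, at 4.26%, 3.58% and 3.39%.

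**Figure D4:**
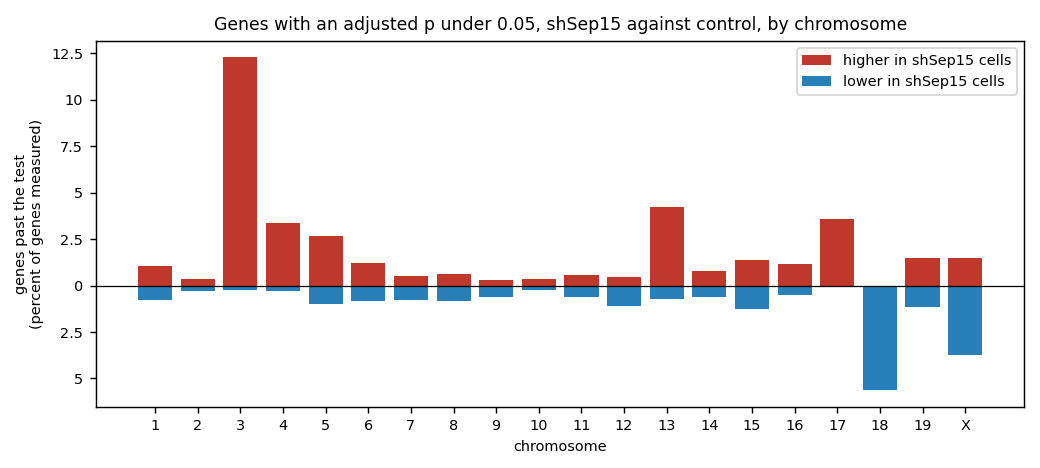
Percent of the genes measured on each chromosome that were higher (red, upward) or lower (blue, downward) in shSep15 cells than in control cells at an adjusted p under 0.05. Chromosome 3 has the tallest upward bar (12.3%), and chromosomes 18 (5.62%) and X (3.74%) have the longest downward bars.

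Along chromosome 3 the difference covered a long stretch. Genes with a mean signal of at least 6 were taken in runs of 20 neighbours, and the stretches below were chosen after their values were seen, so that they are a description with no test. Of all 8054 genes with such a signal, 4896 had a difference above 0, 278 were higher and 115 lower. Chromosomes 17 and 4 had 82.4% and 80.4% of such genes above 0 (medians 0.342 and 0.344), beside 83.9% on chromosome 3 (median 0.61). The first 60 such genes of chromosome 3, Pex2 to Pcdh18, had a median difference of 0.10, and none of them passed. The following 357 genes, Noct to Wls, had a median of 0.72, with 312 of 357 differences above 0, 100 genes higher (28.0%) and 1 lower, which was Selenof. Each shSep15 array showed it, with medians of 0.75, 0.52, 0.80 and 0.84 from the control mean, and the median was 0.05 in shTR1/shSep15 cells. Without the 7 genes of the lists set aside it was 0.71, and without control replicate 2 it was 0.67. The highest run medians were 1.39, from Usp53 to Tbck, and 1.44, from Pdlim5 to Wls, which is the end that holds Selenof, Cryz, Tyw3, Fpgt and Acadm. These were the only runs above 1 among 392 over all chromosomes. Outside chromosomes 3, 18 and X, 352 runs had medians of −0.47 to 0.63.

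Stretches of chromosomes 18 and X were lower in shSep15 cells. On chromosome 18 the 100 genes from Impact to Srfbp1 had a median of −0.53, 98 of them were below 0 and 18 passed as lower. The shSep15 arrays were at −0.46, −0.65, −0.54 and −0.47, while the median was 0.00 in shTR1/shSep15 cells. The first 60 genes of the X chromosome, Clcn5 to Apln, had a median of −0.76, with 58 below 0 and 17 lower (28.3%), and the shSep15 arrays were at −0.66, −0.96, −0.62 and −0.56. The remaining 158 genes of X had a median of 0.14, so that the shift ended within the chromosome. A shorter stretch of chromosome 5, 40 genes from Tpst2 to Suds3, had a median of −0.47 with 6 lower, and 15 lower without control replicate 2.

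**Figure D5:**
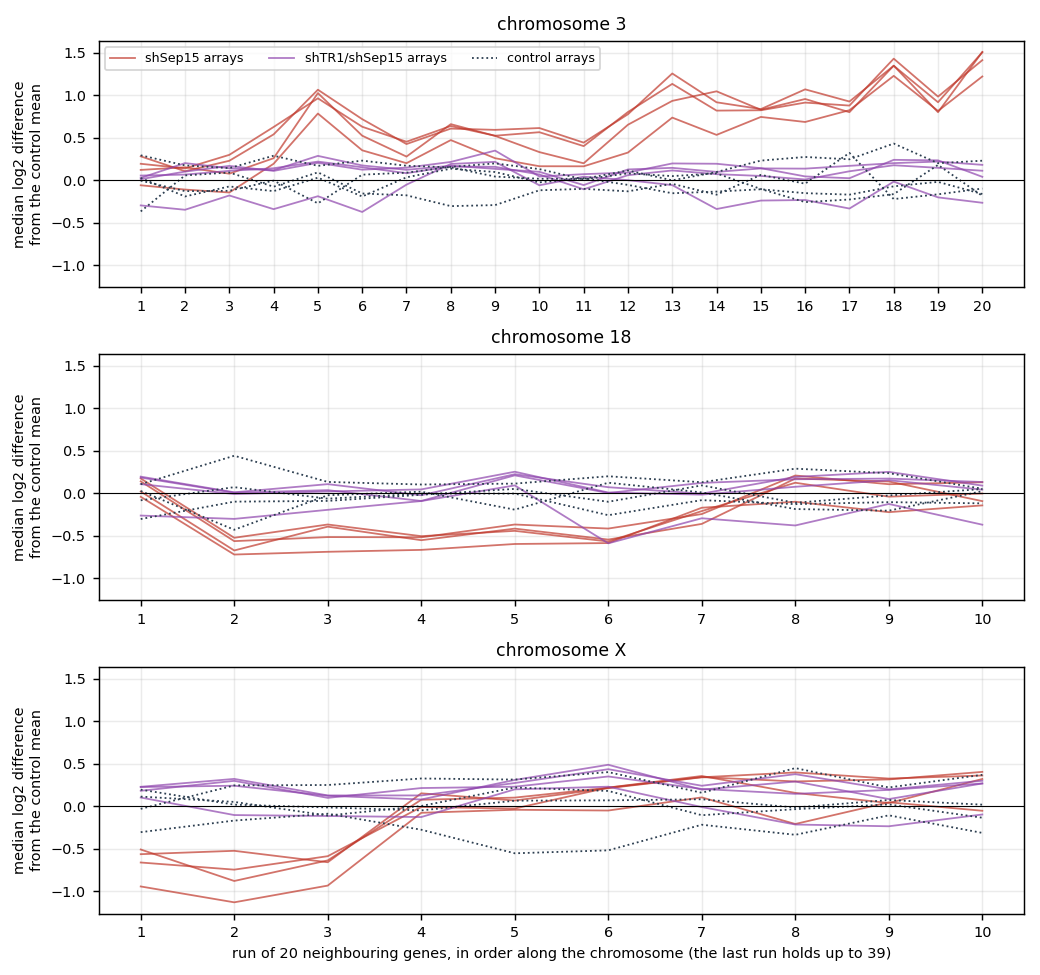
Median log2 difference from the control mean in consecutive runs of 20 bright neighbouring genes along chromosomes 3, 18 and X, 1 line an array, for shSep15 (red), shTR1/shSep15 (purple) and control (dotted) arrays. The shSep15 lines leave the control lines over most of chromosome 3 (stretch median 0.72), over runs 2 to 6 of chromosome 18 (−0.53) and over runs 1 to 3 of X (−0.76).

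Over the whole genome, 58 pairs of called genes lay next to each other in gene order, 53 of them changed in the same direction, and 29 were on chromosome 3. Away from it, such groups included the falls of Dppa4 and Dppa2 and of Nefl and Nefm. On chromosome 18, Tshz1 fell together with Zadh2 (−1.68, adjusted p = 0.0178, limma). Zfp397, Zfp35, Zfp24 and Ino80c, a subunit of the INO80 chromatin remodelling complex, form another group there, at −1.89, −1.43, −1.63 and −1.18, of which all 6 probe sets of Zfp24 and all 3 of Zfp397 passed. A group with opposite directions lay on chromosome 19. Lrrn4cl fell by 3.73, and the next genes Ubxn1, Uqcc3, Ints5 and Ganab rose by 1.42, 0.98, 1.98 and 1.97. Ints5, a subunit of the Integrator complex, had 9.79, 9.49, 10.06 and 10.06 in shSep15 arrays, against 8.54, 7.48, 7.73 and 7.72 in control arrays (adjusted p = 0.00433). The rise of Ganab thus stood beside rises of its neighbours on one side. On the other side B3gat3, Eml3, Mta2 and Tut1 had differences of 0.62 to 0.88 that did not pass, although the arrays of Tut1 did not overlap (adjusted p = 0.0595), and Rom1 was at −0.26.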

How the data were processed

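mRNA of CT26 lines was hybridized to Affymetrix arrays of the mouse genome. The authors processed the arrays with Robust Multi-Array Analysis (RMA, version not given in the sources used here) and deposited log2 signals per probe set, which were used as deposited. The number of arrays limits the precision. Of 45101 probe sets, 64 controls were left out. Of the 45037 tested, 34945 carry 1 gene symbol, 932 several and 9160 none, and a gene was read at the probe set of its symbol alone with the highest mean. No column of sample values was left unmapped. Chromosomes and gene order came from a RefSeq gene table, used for names and order only.

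Each probe set was fitted with limma 3.58.1 in R 4.3.3, each of the 4 lines having its own mean (12 residual and 2.58 prior degrees of freedom), and p-values were Benjamini-Hochberg adjusted over all probe sets, with a threshold of 0.05. The fit was tested on simulated data. An exact permutation test of 4 arrays against 4 cannot go below 0.0286. Genes were named by rule: the 15 largest rises and falls with an adjusted p under 0.05 and no overlap, every list member that passed (1 list and its members are not reported here, other than members that another part of the rule names), in a list with fewer than 2 of those its 2 lowest p-values, the targeted genes and Ccnb1ip1, and 6 genes of chromosome 3. Other neighbours were chosen after their values were seen. The members, the 28 lists and the tests were chosen with earlier results of these data known. Alternatives were other sets of arrays, a replicate block, an intensity trend, a filter on dim probe sets, 2 further normalizations, the methods' ANOVA, a 2-fold criterion, each array left out and other probe sets of a gene. Chosen after seeing the data were averaging shSep15 replicates 3 and 4, leaving control replicate 2 out of the lists, and the stretches of chromosomes. Figures were drawn with matplotlib 3.10.9.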

Additional observations from a re-analysis of the deposited data

Results flagged for a closer look

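In 150 groups of 4 arrays, the gap between the most distant array and its nearest neighbour was set against the range of the group, and 10 exceeded the 95% critical value of Dixon for 4 values. Chance gives about 1 in 20 such groups. Of the 10, 3 were control replicate 2, with gap ratios of 0.893 for Klf2 (10.97, the other controls 8.37 to 8.64), 0.892 for Ccl20 (10.46, the others 5.24 to 5.81) and 0.848 for Il15ra (5.89, the others 4.48 to 4.69).

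Replicate 1 of shSep15 stood apart for Bank1 (0.859, at 4.02 where the other shSep15 arrays were 6.54 to 6.95), Nefm (0.859, at 5.02 where the others were 6.29 to 6.50) and Zmat3 (0.900, at 8.61 where the others were 8.54 to 8.55). Without that array Bank1 rose by 3.75 (adjusted p = 3.06e-05, limma) and Nefm fell by 3.29 (adjusted p = 0.0174). Replicate 2 of shSep15 was the high array for Col3a1 (0.907) and Serpinf1 (0.931), replicate 3 was the low array for Pecam1 (0.833), and control replicate 1 was the high control for Ero1b (0.864).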

How the results depend on the processing

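At its main probe set Selenof kept its direction and its call with other sets of arrays, each array left out, the replicate block, the intensity trend, the filter and the other normalizations (log2 difference −3.39 to −3.12). The ANOVA was not run for single genes. The stretches of chromosomes 3, 18 and X, which have no test, kept their direction (medians 0.63 to 0.79, −0.59 to −0.48 and −0.87 to −0.66). The counts of probe sets depended on the arrays. With 1 array left out, 281 to 800 were higher and 148 to 446 lower, beside 619 and 266 with all. Higher counts moved by over 1.5 times without shSep15 replicate 1 (405), 3 (289) or 4 (281) or control replicate 4 (323), and lower counts without shSep15 replicate 1 (156), 3 (148) or 4 (156) or control replicate 2 (446). Higher and lower counts were 235 and 110 with the 8 arrays alone, 288 and 152 with shSep15 replicates 3 and 4 averaged, 387 and 169 with the methods' ANOVA adjusted, 3404 and 2079 with it unadjusted, and 334 and 166 with a 2-fold criterion. What the replicate numbers stand for is not stated. Deviations of same-numbered shSep15 and control arrays correlated at −0.04, 0.24, 0.21 and −0.20, which cannot decide whether the numbers pair the arrays. The replicate block gave 570 and 212. It ended the calls of Cd14, Col3a1, Fadd and Ifitm1.

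Of 43 named genes that passed, 10 lost the call with some array left out (47 of 344 values) and none turned direction. Under other settings 17 of the 43 lost it, of which 12 did so with the 8 arrays alone (adjusted p = 0.0503 to 0.137), 7 with shSep15 replicates 3 and 4 averaged (0.0626 to 0.119) and 1 with the intensity trend. Another probe set of the gene lost it for 11, with the same direction. Other probe sets turned the direction for B230307C23Rik (−0.028), Supt20 (−0.19), Tcp11x2 (−0.23) and Selenot (−0.007), and, among genes that had not passed, for Erbb3 (−0.12), Ero1b (−0.017 and −0.15), Insr (−0.092 and −0.12), Pfkp (−0.076), Xbp1 (−0.10) and Il13ra1 (0.013, 0.053 and 0.052). Txnrd1, at −0.04, went to 0.0015 with median centring, 0.063 with the averaged arrays, and between −0.28 and 0.10 with an array left out (above 0 at 0.083, 0.043, 0.10 and 0.0042). The causes were not tested. Signal near the floor of the arrays limits what dim genes can show.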
